A study of Mus musculus with 35 samples.

Results

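The bone morphogenetic protein (BMP) pathway was followed through 9 genes while GATA6 turned mouse embryonic stem (ES) cells towards primitive endoderm (PrE). These were the ligand genes Bmp2 and Bmp4, the secreted BMP binding protein Bmper, the receptor Bmpr1a, the inhibitors Bambi and Smad6, and the target genes Id1, Id2 and Id3. They were picked by gene symbol. All 9 were found among the 44853 genes of the induction table, and all 9 were among the 15057 genes that averaged 1 TPM or more in some group (TPM, a gene's share of all transcripts of a library, is already corrected for transcript length). In the siRNA table, which holds genes that the authors class by their response to GATA6, 5 of the 9 were present and tested (Bmp2, Bmp4, Bmper, Bmpr1a and Id3). Bambi, Smad6, Id1 and Id2 were not analysed there.

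The induction series consisted of KH2 ES cells of a mixed C57BL/6 x 129/Sv background, in which doxycycline (Dox) switches on a GATA6 transgene. The methods describe independent clones of this kind and name 1 clone for the siRNA series, while the clone behind the induction libraries is not given in the sources used here. Cells without Dox (0 h) and cells kept in Dox at 1 µg/mL for 16, 24, 48, 72, 96 or 168 h gave 3 libraries per time. The 2 reference libraries were from XEN cells, an extra-embryonic endoderm line, here the wild type line X10 of CD1 background, never given Dox and grown without the cytokine LIF that the ES cells received. Hence a difference between XEN cells and the induced cells cannot be told apart from one of strain, line, LIF or Dox. In the siRNA series the inducible cells were given Dox at 1 µg/mL for 48 h together with siRNA of 2 kinds, non-targeting (siCTL) or directed at Pou5f1, the gene of Oct4 (siOct4), with 6 libraries each. All cultures contained serum and were grown on mouse embryonic fibroblast feeders. The methods describe adsorbing the feeders on plastic before lysis for the inducible cells, and do not say so for XEN cells.

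BMP ligands bind pairs of type I and type II receptors at the cell surface. The type I receptor, of which BMPR1A is one, then phosphorylates SMAD1, SMAD5 and SMAD8, which enter the nucleus with SMAD4. Id1, Id2 and Id3 are among the best known direct targets of these SMADs. They encode small helix-loop-helix proteins without a DNA binding region, which capture E proteins and so keep other helix-loop-helix factors off DNA. In ES cells kept in serum and LIF, BMP signalling through ID genes is known for holding back neural differentiation, and in the embryo BMP2 is known as a signal of the visceral endoderm, a derivative of PrE.

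The labels were checked by marker lists. The summed level of 10 PrE markers lay between 70.6 and 82.8 TPM at 0 h, between 861 and 983 TPM at 16 h and between 17688 and 18356 TPM at 168 h, against 9088 to 9131 TPM in XEN cells. Gata6 was among these markers, at 129 to 138 TPM at 16 h, and its values include the transgene. The sum of 8 ES markers lay between 3072 and 3299 TPM at 0 h and between 91.1 and 165 TPM at 168 h. In XEN cells it was at 17.2 and 19.9 TPM, with Esrrb and Fgf4 listed at 0 in both libraries. Of 13 fibroblast markers, the sum was higher in the library numbered 3 than in the other 2 at every time but 96 h, for example 134 TPM against 57.6 and 44.0 TPM at 0 h and 322 TPM against 155 and 153 TPM at 168 h. Libraries numbered 3 also stood apart from 1 and 2 for several of the genes below. Values without them are given for some of these genes and times, not for all that differ. Fits without all libraries numbered 3 were chosen after seeing the data, so their SEs and p-values depend on that choice. TPM keeps no read counts, so the depth behind each value is unknown, and p-values measure the spread between these libraries. The methods call the replicates of the induction series independent and do not say whether these were separate cultures, separate days or separate clones.

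The upstream sequence of members that moved in opposite directions is shown as context for their values. RefSeq start sites on GRCm38.p6 (mm10) were at hand for 6 of the 9 genes (Bmp4, Bmper, Bmpr1a, Smad6, Id2 and Id3), and not for Bmp2, Bambi and Id1. The 250 bases before the start are printed 5′ to 3′ on the strand of the gene for Bmper (chr9:23222826-23223075, plus strand), which rose, and for Bmp4 (chr14:46390670-46390919, minus strand) and Smad6 (chr9:64022060-64022309, minus strand), which fell. Capitals mark GTCT, the 4 letters that SMAD proteins contact, on either strand (AGAC is the same motif on the other strand).
Bmper: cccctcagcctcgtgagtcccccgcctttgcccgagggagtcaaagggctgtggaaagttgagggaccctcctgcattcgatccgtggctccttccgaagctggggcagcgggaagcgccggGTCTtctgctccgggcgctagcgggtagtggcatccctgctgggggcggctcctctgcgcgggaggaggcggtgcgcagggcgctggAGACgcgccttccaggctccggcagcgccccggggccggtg
Bmp4: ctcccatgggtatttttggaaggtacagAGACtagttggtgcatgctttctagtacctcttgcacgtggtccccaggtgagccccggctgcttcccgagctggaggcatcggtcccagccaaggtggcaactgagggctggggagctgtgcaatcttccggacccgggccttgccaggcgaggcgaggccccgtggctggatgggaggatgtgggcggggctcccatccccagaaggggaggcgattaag
Smad6: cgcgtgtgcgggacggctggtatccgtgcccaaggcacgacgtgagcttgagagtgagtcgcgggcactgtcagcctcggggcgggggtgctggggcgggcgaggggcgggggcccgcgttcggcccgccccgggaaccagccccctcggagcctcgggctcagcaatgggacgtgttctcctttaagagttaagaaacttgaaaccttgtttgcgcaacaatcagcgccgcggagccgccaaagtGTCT
GTCT was found 2 times upstream of Bmper and 1 time each upstream of Bmp4 and Smad6, and 82.9% of all 32851 promoters of this length hold it. GGCGCC, the GC-rich part of BMP response elements, was found once each in the windows of Bmpr1a and Id2 and in none of the other 4, against 9.59% of all promoters. GATAA, the core of the GATA motif, was in none of the 6 windows, against 22.6% of all promoters. The windows of Bmpr1a, Id2 and Id3 precede their RefSeq starts but lie wholly inside the spans that GENCODE gives these genes, and are therefore not printed. The motifs were searched on both strands and none overlapped another. GC content of the 6 windows ran from 62.8% to 78.8%, with a median of 52.4% over all promoters.

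The ligand genes moved in opposite directions. Bmp2 (chr2:133552159-133562885) was at 0.0609, 0 and 0.101 TPM in the 3 libraries at 0 h and at 32.7, 31.7 and 43.9 TPM at 168 h. In XEN cells it was at 36.4 and 33.6 TPM. Bmp4 (chr14:46383520-46390669) was at 22.2, 22.7 and 34.7 TPM at 0 h, and at 3.71, 3.14 and 8.86 TPM at 168 h. Every Bmp2 value at 168 h was above every value at 0 h and every Bmp4 value was below. In XEN cells Bmp4 was at 1.78 and 2.46 TPM. The share of Bmp2 in the sum of both ligands was at most 0.291% in the 0 h libraries, between 31.7% and 69.6% at 48 h, and between 83.2% and 91.0% at 168 h. Bmp2 exceeded Bmp4 in 0 of 3 libraries at 24 h, in 1 of 3 at 48 h and in all 3 at 72, 96 and 168 h. Meanwhile the sum of both ligands was 26.6 ± 7.15 TPM (SD, n = 3) at 0 h, 17.8 ± 4.14 TPM (SD, n = 3) at 48 h and 41.3 ± 9.95 TPM (SD, n = 3) at 168 h. In a bulk sample a lower level per library can come from fewer cells that express the gene or from less RNA in each cell, which cannot be told apart.

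Bmp2 rose in a steep middle phase. At 16 h it was at 0.416, 0.304 and 0.193 TPM, and at 24 h at 0.861, 0.902 and 0.699 TPM. These low values were above those of 0 h in every library but did not pass the fold change minimum, with log2 differences of 0.30 ± 0.19 (SE, limma adjusted p = 0.357) at 16 h and 0.79 ± 0.19 (SE, limma adjusted p = 0.00348) at 24 h. With a pseudocount of 0.1 in place of 1 both passed, at 1.41 (limma adjusted p = 0.00143) and 2.63 (limma adjusted p = 5.93e-07). At 48 h Bmp2 reached 9.03, 9.70 and 5.50 TPM. Between 24 and 48 h it rose by 2.29 ± 0.19 (SE, limma adjusted p = 5.43e-08) on the log2(TPM + 1) scale and between 48 and 72 h by 1.35 ± 0.19 (SE, limma adjusted p = 4.36e-05). The libraries numbered 3 were the lowest of their group at both 48 and 72 h. From 72 to 96 h the difference was 0.18 ± 0.19 (SE, limma adjusted p = 0.532) with overlapping groups, and from 96 to 168 h it was 0.52 ± 0.19 (SE, limma adjusted p = 0.0318), without overlap and under the fold change minimum. Against 0 h, Bmp2 was higher by 5.12 ± 0.19 at 168 h (SE, limma adjusted p = 9.71e-15). In the order of mean levels from 0 h to 168 h, 5 of 7 neighbouring groups did not overlap. The exceptions were 72 h with 96 h and XEN cells with 168 h.

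Bmp4 fell with far more scatter. It was at 23.6, 23.6 and 24.9 TPM at 16 h, all within the range of 0 h. At 24 h it was at 14.2, 13.1 and 32.2 TPM, and at 48 h at 13.2, 4.24 and 11.8 TPM. The fall at 48 h was 1.45 on the log2 scale (SE 0.59, limma adjusted p = 0.0463), the weakest of the calls, and it was lost in fits without any 1 of the 0 h libraries or without the 48 h library numbered 2 (limma adjusted p from 0.0659 to 0.209). At 72 h Bmp4 was lower by -2.44 ± 0.59 (SE, limma adjusted p = 0.00139), at 96 h by -2.12 ± 0.59 (SE, limma adjusted p = 0.00389) and at 168 h by -2.22 ± 0.59 (SE, limma adjusted p = 0.00239). Single libraries stood well above the rest of their group, at 11.01 TPM against 2.42 and 1.997 TPM at 72 h and at 16.7 TPM against 2.11 and 3.29 TPM at 96 h. Along the order of mean levels every one of the 7 neighbouring groups overlapped. The fibroblast sum was highest in the same library as Bmp4 at 0, 16, 24 and 168 h but not at 48, 72 or 96 h, and at 96 h the library with the most Bmp4 had the lowest sum, 102 TPM against 141 and 134 TPM.

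**Figure D1:**
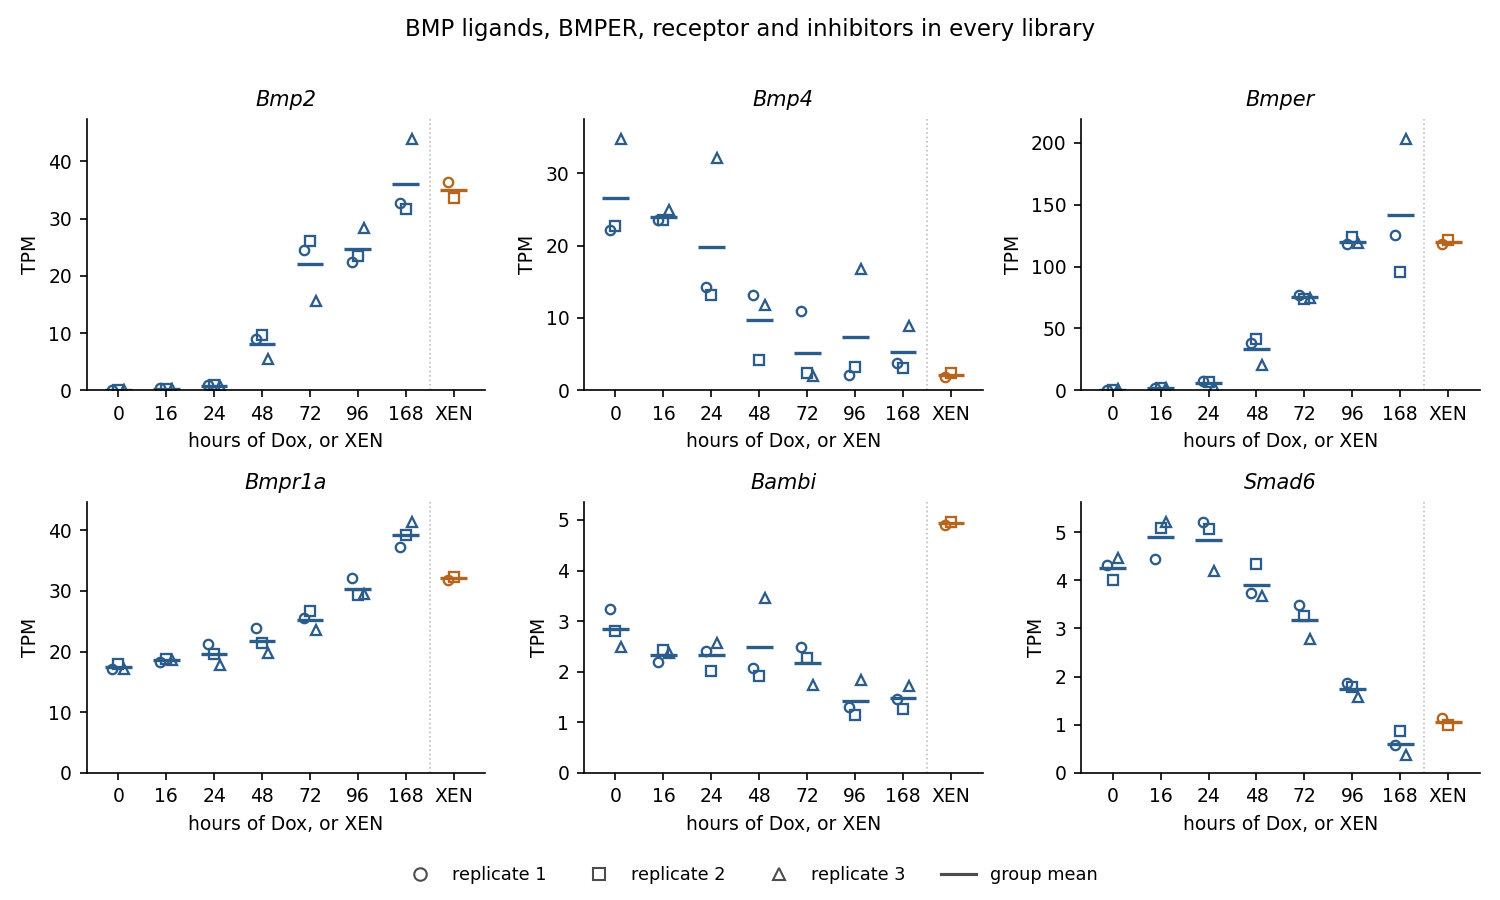
TPM (vertical axes, from 0) of the ligand genes, Bmper, Bmpr1a, Bambi and Smad6 in every library against hours of Dox, with XEN cells to the right of the dotted line. Symbols are replicate numbers and bars are group means. Bmp2 and Bmper climb from near 0 to 36.1 and 141 TPM on average at 168 h, Bmp4 and Smad6 decline, and Bambi is highest in XEN cells.

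Bmper (chr9:23223076-23485200) encodes a secreted protein with von Willebrand type C repeats that binds BMPs outside the cell and can dampen or promote their action depending on dose and context. It was the first of the 9 genes to be called. Levels were 0.305, 0.244 and 1.02 TPM at 0 h, 1.66, 1.75 and 1.83 TPM at 16 h, and 7.16, 6.86 and 2.89 TPM at 24 h. No library at 16 h or later overlapped those of 0 h. At 16 h the log2 difference was 0.89 ± 0.29 (SE, limma adjusted p = 0.0491), short of a change of 1. It passed at 1.11 when the 0 h library numbered 3 was left out (limma adjusted p = 0.0228). At 24 h Bmper had risen by 2.08 ± 0.29 (SE, limma adjusted p = 1.84e-05).

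Bmper went on rising after that. It reached 38.1, 41.4 and 20.3 TPM at 48 h, 76.8, 73.4 and 74.8 TPM at 72 h, and 118, 124 and 119 TPM at 96 h. At 168 h it was at 125, 95.6 and 203 TPM and in XEN cells at 118 and 122 TPM. The level at 168 h was 6.51 ± 0.29 above that of 0 h on the log2 scale (SE, limma adjusted p = 1.53e-13), the largest among the 9 genes with a pseudocount of 1. With a pseudocount of 0.1 Bmper and Bmp2 were level, at 7.96 and 7.92. Bmper spread widely at 168 h, where the library numbered 3 had the most Bmper and the highest fibroblast sum, and without the libraries numbered 3 the change was 6.44 ± 0.10 (SE, limma adjusted p = 1.51e-13). The groups from 0 to 72 h formed an order in which no neighbours overlapped. XEN cells, 96 h and 168 h followed and overlapped one another. Per transcript length, Bmper at 96 h stood at 120.2 ± 3.10 TPM (SD, n = 3), against 24.7 ± 3.16 TPM (SD, n = 3) for Bmp2 in the same libraries.

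Bmpr1a (chr14:34410734-34503341), the type I receptor for BMP2 and BMP4, was present before Dox and increased in small steps. It was at 17.1 to 17.9 TPM at 0 h, 18.3 to 18.7 TPM at 16 h, 23.5 to 26.8 TPM at 72 h and 29.3 to 32.2 TPM at 96 h. At 168 h it stood at 37.2, 39.2 and 41.4 TPM, above every library of every other group of the induction series. The replicates lay close together, with an SE of 0.08 on the log2 scale. The rise at 168 h was 1.13 (limma adjusted p = 1.14e-10), just above the fold change minimum of 1, and with median-of-ratios rescaling it was 0.95 (limma adjusted p = 4.05e-10) and no longer called. That rescaling moved the median log2 change of all tested genes at 168 h from 0.09 to -0.04. Differences at 48, 72 and 96 h were 0.30, 0.51 and 0.77 with limma adjusted p of 0.00319, 1.03e-05 and 4.68e-08, under the fold change minimum. In XEN cells Bmpr1a was at 31.8 and 32.3 TPM, 0.85 ± 0.09 above 0 h (SE, limma adjusted p = 4.92e-08) and 0.28 ± 0.09 below 168 h (SE, limma adjusted p = 0.01099), neither past the fold change minimum.

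The inhibitors took separate courses. Smad6 (chr9:63953076-64022059) encodes an inhibitory SMAD that competes with the signalling SMADs and is itself a BMP target. It was at 4.32, 4.01 and 4.45 TPM at 0 h, and at 4.44, 5.08 and 5.21 TPM at 16 h. Levels then came down to 1.57 to 1.86 TPM at 96 h and to 0.570, 0.863 and 0.365 TPM at 168 h. All 3 libraries at 168 h were below all others, XEN cells included. The fall against 0 h was -0.94 ± 0.12 at 96 h (SE, limma adjusted p = 9.43e-07), short of the minimum, and -1.73 ± 0.12 at 168 h (SE, limma adjusted p = 1.18e-10). In XEN cells Smad6 was at 1.13 and 0.991 TPM, lower than at 0 h by -1.35 ± 0.13 (SE, limma adjusted p = 2.77e-08).

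Bambi (chr18:3507923-3516404) encodes a membrane protein that resembles a type I receptor without its kinase and blocks signalling. It was low throughout, at 3.23, 2.80 and 2.49 TPM at 0 h and 1.46, 1.27 and 1.71 TPM at 168 h. The 168 h difference was -0.63 ± 0.15 (SE, limma adjusted p = 0.00106), short of a change of 1. XEN cells held more, at 4.90 and 4.97 TPM, above every library of the induced cells. Of the 9 genes Bambi alone was called between XEN cells and 168 h, higher in XEN cells by 1.26 ± 0.17 (SE, limma adjusted p = 6.83e-06), in a comparison where 4.73% of all tested genes were higher and 9.17% lower. With a filter of at least 5 TPM neither Bambi nor Smad6 was tested, as the highest group mean of Smad6 was 4.91 TPM, at 16 h. For the other 8 genes the difference between XEN cells and 168 h was between -0.90 (Bmp4, 95% interval -2.29 to 0.50) and 0.39 (Id3, 95% interval -0.04 to 0.82). For Bmp2 it was -0.03 (95% interval -0.47 to 0.41) and for Bmper -0.17 (95% interval -0.84 to 0.51).

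The ID genes were all well expressed before Dox. At 0 h the 3 libraries held 91.3 to 112 TPM of Id1, Id2 and Id3 together. The sum lay between 144 and 165 TPM at 16 h and between 148 and 175 TPM at 24 h, without overlap with 0 h. At 96 h it was 61.8 to 98.8 TPM and in XEN cells 76.5 and 77.0 TPM. The 3 genes followed different paths.

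Id3 (chr4:136143497-136145755) had an early high and a late low. It was at 25.7, 23.9 and 43.9 TPM at 0 h, at 52.6, 52.4 and 63.1 TPM at 16 h and at 56.5, 53.2 and 62.1 TPM at 24 h. Every library at 16 and 24 h was above every library at 0 h. The log2 differences of 0.87 ± 0.18 (SE, limma adjusted p = 0.00273) and 0.91 ± 0.18 (SE, limma adjusted p = 9.25e-04) were under the minimum of 1. The 0 h library numbered 3, the one with the highest fibroblast sum of its group, bore on this. Without it the differences were 1.14 (limma adjusted p = 5.65e-05) and 1.17 (limma adjusted p = 1.87e-05), both called. From 24 to 48 h Id3 was lower by -0.69 ± 0.18 (SE, limma adjusted p = 0.00621), and between 96 and 168 h by -0.84 ± 0.18 (SE, limma adjusted p = 0.00109), each under the minimum. At 168 h it was at 8.85, 11.1 and 15.9 TPM, a fall of -1.30 ± 0.18 against 0 h (SE, limma adjusted p = 2.97e-06), with no overlap. XEN cells were at 15.8 and 15.4 TPM, within the range of 168 h.

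Id1 (chr2:152736251-152737410) was not called at any time. It was at 35.3, 33.3 and 38.9 TPM at 0 h and at 62.8, 69.0 and 54.3 TPM at 16 h. The groups did not overlap, with a log2 difference of 0.77 ± 0.30 (SE, limma adjusted p = 0.1097). Libraries then parted by number. At 72 h Id1 was at 92.3 and 85.9 TPM in libraries 1 and 2 and at 33.1 TPM in library 3, and at 16, 24, 48 and 96 h library 3 was again the lowest. Without the libraries numbered 3, Id1 passed at 24 h with 1.05 ± 0.10 (SE, limma adjusted p = 6.04e-06) and at 72 h with 1.35 ± 0.10 (SE, limma adjusted p = 1.26e-07). That fit kept only libraries 1 and 2 and was chosen after seeing these values, so its p-values do not test the split. The fibroblast sum in the 72 h library numbered 3 was 182 TPM, against 68.7 and 80.3 TPM, and its part in these values was not tested. At 168 h Id1 was at 21.7, 27.2 and 23.04 TPM, and in XEN cells at 25.4 and 24.5 TPM, below all libraries at 0 h. The 168 h difference was -0.56 ± 0.30 (SE, limma adjusted p = 0.09995).

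Id2 (chr12:25093799-25097140) dipped at 96 h. It was at 36.8, 34.1 and 29.1 TPM at 0 h, 16.4, 19.1 and 15.2 TPM at 96 h, and 62.2, 62.6 and 25.9 TPM at 168 h. The 96 h libraries were below all other libraries of the series. Against 0 h that difference was -0.94 ± 0.23 (SE, limma adjusted p = 0.00156), under the minimum. From 96 to 168 h Id2 rose by 1.42 ± 0.23 (SE, limma adjusted p = 8.55e-05). The high values at 168 h were in libraries 1 and 2, while library 3 was below the 0 h libraries, and the difference between 168 and 0 h was 0.48 ± 0.23 (SE, limma adjusted p = 0.0720). Leaving out the libraries numbered 3 raised it to 0.80 ± 0.11 (SE, limma adjusted p = 2.60e-05), still under the minimum. In XEN cells Id2 was at 35.3 and 37.1 TPM, overlapping the 0 h libraries.

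**Figure D2:**
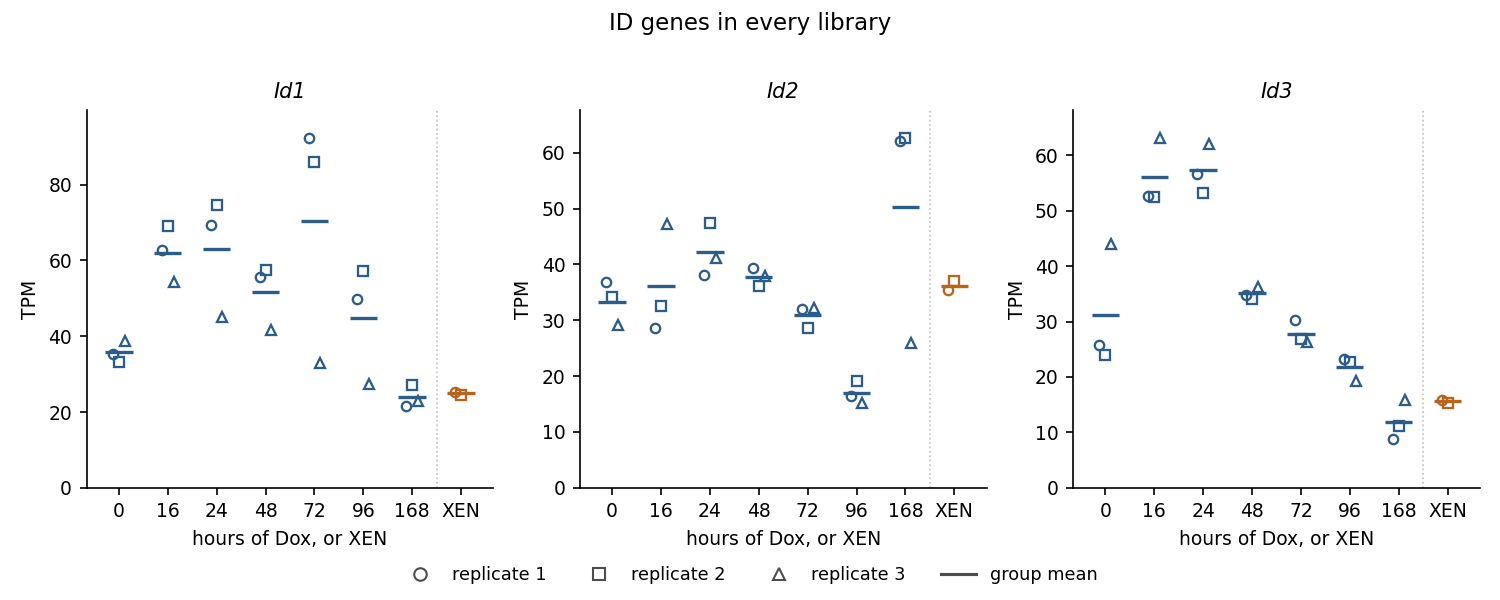
TPM (vertical axes, from 0) of Id1, Id2 and Id3 in every library against hours of Dox, with XEN cells to the right of the dotted line; symbols are replicate numbers and bars group means. Id3 is highest at 16 and 24 h and lowest at 168 h, Id1 splits by replicate number at 72 h, and Id2 is lowest at 96 h, between 15.2 and 19.1 TPM.

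The calls for the 9 genes were set against those for all tested genes. A call needed an adjusted p under 0.05 over all tested genes and a log2 change beyond 1 in either direction. The Dox times and XEN cells share the same 0 h libraries, so their counts are not independent. Here and below, counts at an unadjusted p under 0.05 were made for the listed genes only and have no background. At 16 h limma called 0 of the 9, with 3 at an unadjusted p under 0.05 (Bmper, Id1 and Id3), while 1.97% of all tested genes were higher and 0.804% lower. At 24 h 1 was higher (Bmper), against 3.24% of all tested genes higher and 2.44% lower. At 48 h 2 were higher (Bmp2 and Bmper) and 1 lower (Bmp4), and the same 3 genes were called at 72 and 96 h. Of all tested genes 9.14% rose and 7.26% fell by 48 h. By 72 h these shares were 14.7% and 11.5%, and by 96 h they were 15.4% and 14.1%. At 168 h 3 were higher (Bmp2, Bmper and Bmpr1a) and 3 lower (Bmp4, Smad6 and Id3), against 22.6% and 16.5%. In XEN cells against 0 h 2 were higher (Bmp2 and Bmper) and 2 lower (Bmp4 and Smad6), against 18.9% and 18.7%. The median log2 change of the 9 at 168 h was -0.56, that of all tested genes 0.09.

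Between neighbouring times the calls were few. From 16 to 24 h Bmper rose by 1.197 ± 0.29 (SE, limma adjusted p = 0.0303), against 0.352% of all tested genes that changed in either direction (53 genes, and 31 to 103 in fits without 1 library), and this call was lost in 5 of the 6 fits that left out 1 library of these groups. Without all libraries numbered 3 the rise was larger, at 1.57, and 141 of all tested genes were called. From 24 to 48 h Bmp2 and Bmper rose, against 5.56% of all genes. They rose again from 48 to 72 h, against 3.33%, Bmper by 1.21 ± 0.29 (SE, limma adjusted p = 0.00399). Without the 48 h library numbered 3 that step of Bmper was 0.90 (limma adjusted p = 0.0328) and not called. From 72 to 96 h limma called 0 of the 9, with 5 at an unadjusted p under 0.05, against 1.71% of all genes (257 genes, and 130 to 735 in fits without 1 library). The highest of these counts was without the 72 h library numbered 3, where 1 of the 9 was called. From 96 to 168 h Id2 alone was called, against 7.67%. A fit without the libraries numbered 3, chosen after seeing the data, had 3 calls in the last step, with 1253 among all tested genes. Id2 was higher, and Id1 and Id3 were lower by -1.10 ± 0.10 (SE, limma adjusted p = 2.91e-06) and -1.13 ± 0.09 (SE, limma adjusted p = 1.12e-06).

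**Figure D3:**
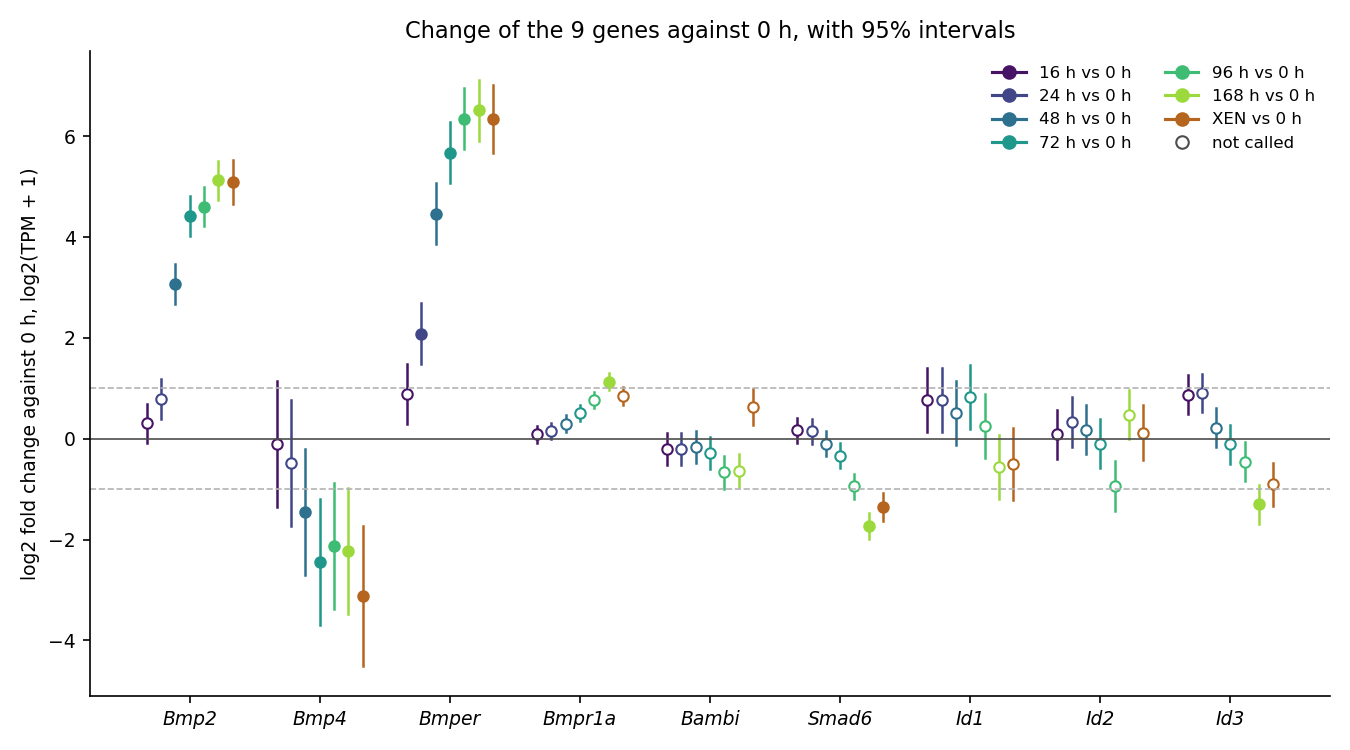
Log2 fold change against 0 h on the log2(TPM + 1) scale (vertical axis) of the 9 genes at each Dox time and in XEN cells, with 95% intervals from limma; filled points were called, and dashed lines mark a change of 1. Bmp2 and Bmper reach 5.12 and 6.51 at 168 h, while Bambi, Id1 and Id2 have no filled point.

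Likeness in course was measured as the Pearson correlation of log2(TPM + 1) over the 23 induction libraries, which share their time points, so that any pair of genes with a steady course scores high. Among 11355 genes that averaged 5 TPM or more in some group, the nearest to Bmp2 were Pth1r (r = 0.995), Lamp1 and Cpd. Nearest to Bmper were Lyn (r = 0.996), Msx2 (r = 0.994) and Clcn4. Msx2 encodes a homeobox factor and is itself a known BMP target. Nearest to Bmpr1a was Bmpr2 (r = 0.990), the type II BMP receptor, followed by Ikbip and Laptm4a. Smad6 was closest to Rpl7 (r = 0.978), Epb41l4aos and Hmga1b, and Id3 to Calcoco2 (r = 0.956), Dmtn and Eif3d. The others had looser neighbours, which were Ulk1 (r = 0.913), Rfx2 and Adgrl1 for Bmp4, Lsm8 (r = 0.886), Tctex1d2 and Cox7b for Bambi, Mrps30 (r = 0.856), Vdac1 and Ascl2 for Id1, and Snn (r = 0.790), Cbr1 and Cab39l for Id2. Among the 9 themselves the highest value was that of Bmp2 with Bmper (r = 0.986) and the lowest that of Bmpr1a with Smad6 (r = -0.936). Id3 and Smad6 had r = 0.901 and Id1 and Id3 r = 0.715, but Id2 and Id3 had r = -0.00470.

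The rest of the pathway was described by a list of 64 genes with roles in BMP signalling, of which 55 were not among the 9 and 40 of these were tested. At 16 h 2 of the 40 were higher and 0 lower, beside 1.97% and 0.804% of all tested genes. Both were ligands. Bmp6, a ligand related to BMP5 and BMP7, rose from 0.294 ± 0.161 TPM to 5.77 ± 0.0656 TPM (SD, n = 3 each), or by 2.39 ± 0.11 on the log2 scale (SE, limma adjusted p = 9.48e-12), and Bmp8a by 1.16 ± 0.16 (SE, limma adjusted p = 5.12e-05). So Bmp6 was called at a time when Bmp2 was still under 0.5 TPM in every library.

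At 168 h 18 of the 40 were higher and 1 was lower, with a median log2 change of 0.92 against 0.09 over all tested genes. Of all tested genes 22.6% were higher and 16.5% lower at this time, and the counts by role that follow have the same background. Those counts by role are over all 49 tested genes of the list, with the 9 included. Of 12 secreted binders tested, Bmper included, 6 were higher and 0 lower. Nog, encoding noggin, which traps BMP2 and BMP4, went from 0.179 ± 0.161 TPM at 0 h to 117 ± 10.8 TPM at 168 h (SD, n = 3 each), or 6.65 ± 0.22 higher on the log2 scale (SE, limma adjusted p = 2.00e-15). Fst, encoding follistatin, which binds activin and some BMPs, went from 7.14 ± 2.17 to 372 ± 58.6 TPM (SD, n = 3 each) with a change of 5.54 ± 0.29 (SE, limma adjusted p = 1.58e-12). Both were late, with Nog at 0.223 ± 0.0365 TPM and Fst at 5.08 ± 0.322 TPM (SD, n = 3 each) at 48 h, when Bmper already stood at 33.3 ± 11.4 TPM (SD, n = 3). Of 8 receptors and co-receptors tested, Bmpr1a included, 5 were higher and 0 lower. Among the higher ones was Acvr1, a type I receptor, which rose by 4.02 ± 0.11 (SE, limma adjusted p = 1.33e-16). Among 7 ligands 4 were higher, Bmp2 included, and 1, Bmp4, was lower, and among 3 SMAD transducers 1 was higher. Of 7 intracellular and membrane inhibitors 1 was higher and 2 were lower, Smad6 and the second inhibitory SMAD gene, Smad7, which fell by 1.55 (SE 0.15, limma adjusted p = 1.18e-08). Of 9 target transcription factors 3 were higher and 1, Id3, lower, and of 3 E proteins, the partners that ID proteins capture, 1 was higher.

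XEN cells were compared over the same list. Against 0 h, 16 of the 40 were higher and 4 lower, with 18.9% and 18.7% of all tested genes. Fst was higher by 6.01 ± 0.32 (SE, limma adjusted p = 3.24e-12) and Nog by 6.00 ± 0.24 (SE, limma adjusted p = 5.62e-14). The largest called falls were those of Eng, a co-receptor for BMP9, at -2.95 ± 0.32 (SE, limma adjusted p = 8.57e-08), of Skil, which represses SMAD complexes, at -1.88 ± 0.24 (SE, limma adjusted p = 1.02e-06), and of Smad7 at -1.45 ± 0.16 (SE, limma adjusted p = 1.69e-07). Directly against 168 h, 2 were higher in XEN cells and 6 lower, where all tested genes gave 4.73% and 9.17%. Fstl3, a relative of follistatin, was higher by 1.58 ± 0.17 (SE, limma adjusted p = 3.03e-07). Eng was lower by -3.90 ± 0.32 (SE, limma adjusted p = 1.00e-08), Bmp6 by -1.92 ± 0.12 (SE, limma adjusted p = 2.81e-10) and Gdf6, another BMP family ligand, by -1.89 ± 0.30 (SE, limma adjusted p = 4.70e-05). Rescaling moved the median of all tested genes in this comparison from -0.14 to -0.02, and of the genes called, 34.0% were higher before and 46.5% after.

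**Figure D4:**
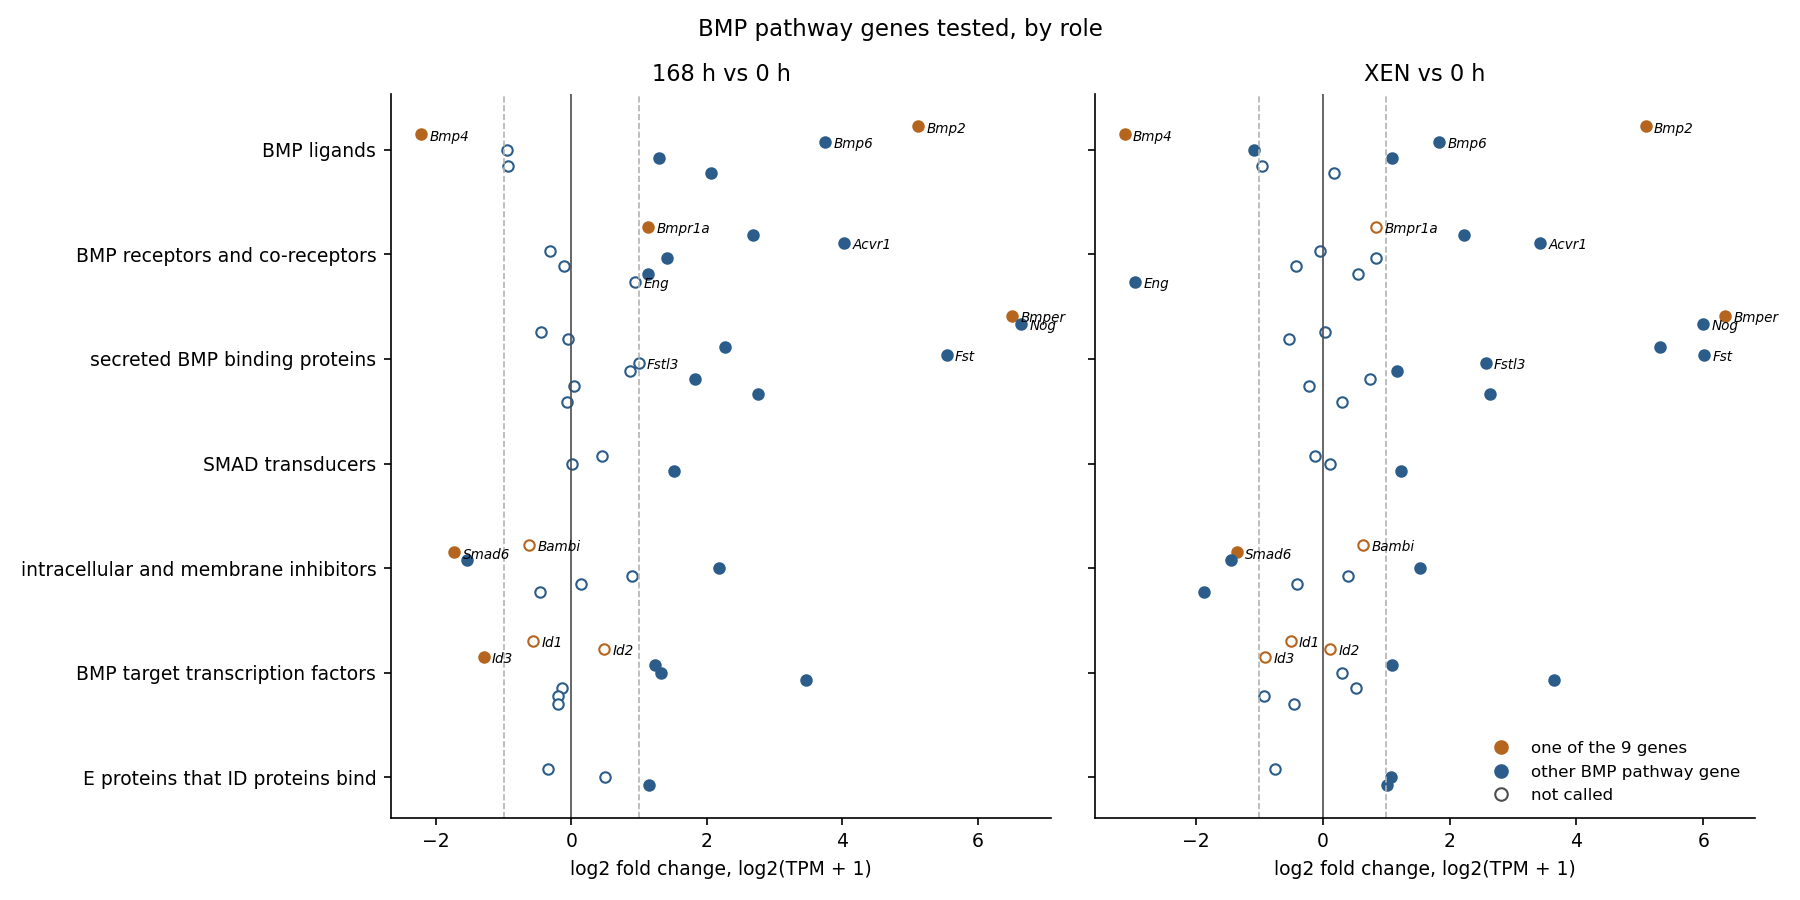
Log2 fold change on the log2(TPM + 1) scale (horizontal axes) of the 49 tested genes of the pathway list, in rows by role, at 168 h and in XEN cells against 0 h; filled points were called and dashed lines mark a change of 1. The 9 genes followed here are in orange, and Nog, Fst and Bmper lie farthest to the right at 168 h, between 5.54 and 6.65.

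To ask what Oct4 contributes at 48 h of Dox, siOct4 was compared with siCTL. Pou5f1 was at 282 to 387 TPM in the siOct4 libraries and at 782 to 1194 TPM in the siCTL libraries. Gata6, with the transgene included, was at 51.2 to 130.2 TPM and at 92.6 to 198 TPM. The sum of the PrE markers lay between 2151 and 4288 TPM and between 2991 and 8026 TPM. In this table a call needed an adjusted p under 0.05 and a log2 change beyond 0.5. Limma called 0 of the 5 genes, with 1 at an unadjusted p under 0.05 (Bmper). In the background 0.942% of 6264 tested genes were higher and 1.72% lower. Of the genes called 35.3% were higher, and 48.5% after rescaling, which moved the median of all tested genes from -0.12 to 0.01. The rescaling factors came only from this subset of genes, so a shift shared by most of them would be removed.

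Bmper was lower with siOct4 in 6 of 6 same-numbered pairs. Its lowest, median and highest values were 45.0, 63.5 and 137 TPM with siCTL and 15.8, 34.4 and 66.4 TPM with siOct4, and the groups overlapped. The log2 difference was -0.92 ± 0.31 (SE, limma adjusted p = 0.168). Same-numbered libraries deviated together in this series, and when blocking on the replicate number the difference was -0.92 ± 0.19 (SE, limma adjusted p = 0.0126), which passed, so that 1 of the 5 was called. The block also raised the share of all tested genes called, to 2.43% higher and 6.15% lower. With the block and rescaling together it was -0.77 ± 0.16 (SE, limma adjusted p = 0.0133). The PrE marker sum was also lower with siOct4 in 6 of 6 pairs, and its part in the difference was not tested.

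The other 4 showed no shared direction. Bmp2 ran from 4.53 through 7.70 to 10.52 TPM (lowest, median and highest) with siCTL and from 2.49 through 8.72 to 10.54 TPM with siOct4, with a log2 difference of -0.11 (95% interval -0.80 to 0.59). Bmpr1a differed by -0.09 (95% interval -0.64 to 0.46), and its lowest siCTL library was at 14.9 TPM against 37.8 to 42.3 TPM in the other 5. Both signs turned positive with rescaling, to 0.02 and 0.06. Bmp4 differed by 0.06 (95% interval -1.02 to 1.15), with 0.637 to 9.44 TPM in siOct4 and 0.362 to 6.47 TPM in siCTL. Id3 was at 11.5, 17.7 and 22.4 TPM (lowest, median and highest) with siCTL and at 14.6, 19.9 and 42.7 TPM with siOct4, with a log2 difference of 0.39 ± 0.27 (SE, limma adjusted p = 0.591). For both Bmp4 and Id3 the 2 highest siOct4 libraries were those numbered 5 and 6, with 9.44 and 8.002 TPM of Bmp4 and 38.1 and 42.7 TPM of Id3. These libraries also had the highest fibroblast sums, 219 and 198 TPM against 32.9 to 66.9 TPM in the other 4 siOct4 libraries. They had the highest trophoblast sums as well, 130.5 and 128 TPM against 21.9 to 51.1 TPM. The sums are over 6 of 13 fibroblast and 5 of 6 trophoblast markers, those among the genes that the authors class by their response to GATA6. Fibroblast sums of the siCTL libraries ran from 31.1 to 217 TPM, and the part of either list in the values of Bmp4 and Id3 was not tested.

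Of the other pathway genes in the siRNA table, 24 were tested and 1 was called, beside 0.942% of all tested genes higher and 1.72% lower. An unadjusted p under 0.05 was found for 7, a count without a background over all tested genes. The called gene was Bmp6, which fell by 1.16 with siOct4 (SE 0.27, limma adjusted p = 0.0361). Bmp6 had a median of 9.17 TPM with siCTL and 3.99 TPM with siOct4 and was lower in 6 of 6 pairs. The groups did not overlap, the lowest siCTL library being at 5.53 TPM and the highest siOct4 library at 4.83 TPM. Bmp8a and Gdf6 were also lower in 6 of 6 pairs and were not called. So was the PrE marker sum, and its part in the fall of Bmp6 was not tested.

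**Figure D5:**
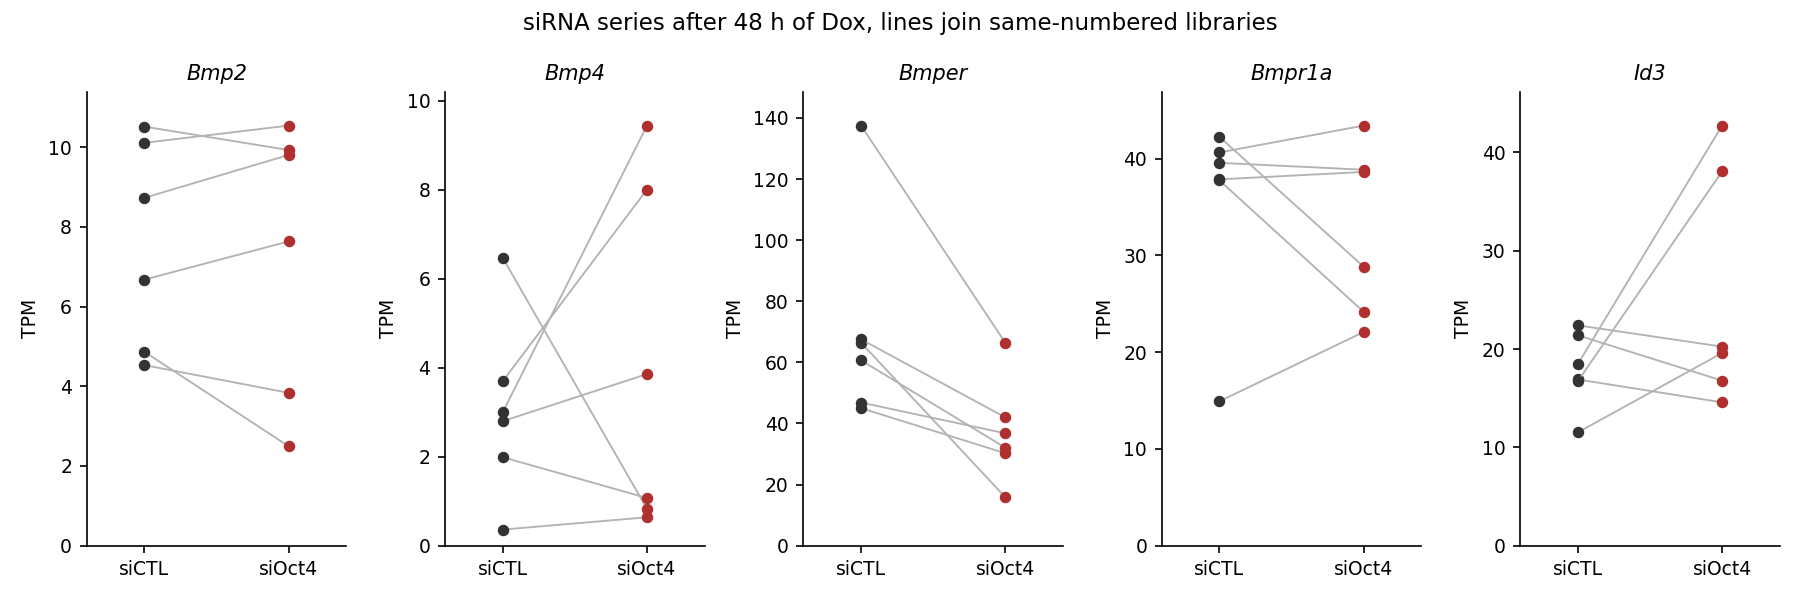
TPM (vertical axes, from 0) of the 5 genes present in the siRNA table, in the 6 siCTL and 6 siOct4 libraries after 48 h of Dox; grey lines join libraries with the same number. All 6 lines for Bmper slope down, and the siOct4 libraries numbered 5 and 6 are the highest for Id3, at 38.1 and 42.7 TPM.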

How the data were processed

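RNA-seq was available for 35 mouse libraries, 23 of an induction series and 12 of an siRNA series, grouped by their titles. The authors prepared stranded polyA libraries, mapped reads with STAR (mm10) and deposited the TPM that RSEM estimated, after leaving out outliers of a principal component analysis. Tool versions and the annotation are not given in the sources used here. A gene that loses share can do so because others gain, since TPM sums to the same total in each library. The siRNA table holds a subset of genes and 2 text columns with the authors' own classes of response, which were not used. Of 60 symbols on more than 1 row, only the row of highest mean entered. Log2(TPM + 1) was tested with limma 3.58.1 in R 4.3.3 (trend and robust options, 1 coefficient per group) on genes that averaged 1 TPM or more in some group, with Benjamini-Hochberg adjustment over all genes tested. Fold changes on this scale understate the change of low genes. The scripts were tested on simulated data. The tests had been laid out for normalised values or counts, and as the values were TPM no count test was run.

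In the siRNA series residuals of libraries sharing a number correlated in 6 of 6 pairs (0.236 to 0.707), so a second fit took the numbers as pairs, with a replicate block. Some libraries of different numbers also correlated, with 10 of 30 pairs over 0.1 and a range from -0.556 to 0.459. The paper describes 6 separate experiments. Members and gene lists were chosen with earlier results of these data known. Genes other than the 9 were named by rule, up to 3 largest rises and 3 largest falls called in 5 comparisons and the 3 nearest genes in course. A gene that this rule picks is not reported here. Positions are from GENCODE M21, upstream sequences from RefSeq, and further tools were Python 3.11.15, numpy 2.4.6, pandas 2.3.3 and matplotlib 3.10.9. Alternatives were another scaling, pseudocounts, filters, thresholds, a replicate block, fits on the compared groups only, and fits without each library in turn. A fit without all libraries numbered 3 was chosen after seeing the data.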

Additional observations from a re-analysis of the deposited data

Results flagged for a closer look

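Gaps between the extreme library and the rest of its group were screened with Dixon's ratio on the log2(TPM + 1) scale in the 2 groups of 6 libraries of the siRNA series, over 30 sets of values, and 3 were past the 95% limit. Chance passes about 1 in 20 such sets. Bmper in the siCTL library numbered 4 was at 7.11 on that scale, against 5.52 to 6.10 in the other 5 siCTL libraries. Fst in the same library was at 4.86, against 3.31 to 3.74. Bmpr1a in the siCTL library numbered 3 was at 3.99, against 5.28 to 5.43. The library numbered 4 also had the highest PrE marker sum of its group, 8026 TPM against 2991 to 4732 TPM.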

How the results depend on the processing

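In the 1235 recomputed log2 changes of the 9 genes, none of the 27 called values changed direction. A call was lost for 4 of them. Those were Bmp4 at 48 h (also with an adjusted p under 0.01, a pseudocount of 0.1 or no filter), Bmper from 16 to 24 h and from 48 to 72 h, and Bmpr1a at 168 h with rescaling. Bambi and Smad6 were not tested with a filter of at least 5 TPM, so their calls have no value there. Of the uncalled values counted here, 22 were called under at least 1 alternative. Uncalled steps between neighbouring times were not among the values counted. Numbers of the 9 called changed as follows. Without a fold change minimum there were 2 at 16 h, 3 at 24 h and 4 at 48 h. At 72 h there were 6, at 96 h 8 and at 168 h 7. Of all 15057 tested genes 1949, 4293, 8093, 9873, 10138 and 11286 were then called at these times. In XEN cells there were 7 against 0 h and 3 against 168 h, beside 10721 and 7525 of all tested genes. The steps from 24 to 48 h, 48 to 72 h and 72 to 96 h had 3 each. The step from 96 to 168 h had 6. All tested genes gave 5645, 4450, 2477 and 6432 in these steps. With a pseudocount of 0.1, 2 of the 9 were called at 16 h, at 24 h, from 16 to 24 h and from 96 to 168 h. All tested genes gave 674, 1440, 83 and 2038. From 16 to 24 h, 0 were called with an adjusted p under 0.01, with no filter or in a fit of those 2 groups alone. With a mean of at least 5 TPM 0 were called between XEN cells and 168 h, beside 1727 of all genes tested with that filter. Over fits that left out libraries, the numbers ran from 0 to 2 at 16 h, 1 to 3 at 24 h, 0 to 1 from 16 to 24 h, 1 to 2 from 48 to 72 h, 0 to 1 from 72 to 96 h and 1 to 3 from 96 to 168 h. In the same fits all tested genes gave 363 to 464 at 16 h and 794 to 1073 at 24 h. For the 4 steps, in the same order, they gave 31 to 141, 448 to 878, 130 to 887 and 1140 to 1280.

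Changes of sign were confined to uncalled values and to the alternatives tried. With rescaling XEN cells differed from 168 h by 0.14 for Bmp2 and 0.0029 for Bmper, and siOct4 from siCTL by 0.0233 for Bmp2 and 0.0619 for Bmpr1a. Over fits that left out libraries, Bmp4 at 16 h ran from -0.22 to 0.0949, Id2 at 16 h from -0.21 to 0.24 and Id3 at 72 h from -0.27 to 0.19. Between XEN cells and 168 h, Bmp2 ran from -0.11 to 0.12, Bmper from -0.41 to 0.13 and Id1 from -0.00490 to 0.15. Between siOct4 and siCTL, Bmp2 ran from -0.23 to 0.12, Bmpr1a from -0.31 to 0.0123 and Bmp4 from -0.23 to 0.30. The cause of these changes was not tested.

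In the induction series the replicate numbers paired the libraries only weakly, and mostly those numbered 3. Deviations of same-numbered libraries correlated by 0.03 on average, and 16 of 77 pairs were over 0.1. Among libraries of different numbers the average was -0.02, and 7 of 154 pairs were over 0.1. The 16 pairs were 10 of 21 numbered 3 (average 0.07), 4 of 28 numbered 1 and 2 of 28 numbered 2. With the replicate number as a block Id1 differed by -0.11 between XEN cells and 168 h, and no count of the 9 moved. In the siRNA series the block gave 1 call, also with rescaling (0.0233 for Bmp2 and 0.0619 for Bmpr1a), in place of 0.

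The numbers of all genes called, which set the background, rose without a fold change minimum from 417 to 1949 at 16 h, from 5887 to 11286 at 168 h and by over 1.5 times in the other induction comparisons. A pseudocount of 0.1 moved 16 h to 674, 24 h to 1440 and XEN cells against 168 h from 2092 to 3215. The step from 72 to 96 h went from 257 to 8 in a fit of those 2 groups alone, to 130, 131 and 735 without the 72 h library numbered 2, 1 or 3, and to 164 without the 96 h library numbered 1. The step from 16 to 24 h went from 53 to 31 or 103 without the 24 h library numbered 2 or 3, and that from 48 to 72 h from 502 to 878 without the 72 h library numbered 3. For siOct4 the number was 167, 61 with an adjusted p under 0.01, 297 with rescaling, 537 with the block and 602 with both, and 87 to 322 without single libraries, past 1.5 times either way without siCTL 3 (322), 5 (90) or 6 (87) or siOct4 1 (107), 2 (110) or 4 (96). Depth is unknown, so levels under 1 TPM, such as Bmp2 before 48 h, have no counting error attached.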
